A study of Homo sapiens with 66 samples.

Results

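The nuclear genes for the subunits of respiratory chain complexes I to V were followed in 2 myeloma cell lines treated with inhibitors of prolyl-tRNA synthetase (ProRS) or the proteasome. They were chosen by symbol: protein-coding genes that begin with NDUFA, NDUFB, NDUFC, NDUFS or NDUFV, the genes SDHA to SDHD, and those that begin with UQCR, COX4 to COX8 or ATP5, without the assembly factors named NDUFAF or SDHAF. The rule gave 90 genes, of which 89 had a row among the 20167 genes of the count table. UQCRHL was not analysed here. Of the 90, 38 belong to complex I, 4 to complex II, 9 to complex III, 19 to complex IV (NDUFA4 and NDUFA4L2 among them) and 20 to complex V, counting the inhibitor ATP5IF1.

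RNA sequencing covered 66 libraries in 22 groups of 3. AMO1, a human plasma cell myeloma line labelled wild type, gave 12 groups, and L363-CFZr, a subline of the myeloma line L363 labelled as carfilzomib-resistant, gave 10. Both lines were exposed for 6 or 24 h to DMSO, the solvent control, or to 1 µM of NCP26, NCP22, halofuginone (HFG) or halofuginol, and AMO1 also to carfilzomib (CFZ), a proteasome inhibitor, at a dose that the sample labels do not give. A figure legend of the study gives that dose as 10 nM for AMO1. HFG occupies the proline site of ProRS, NCP26 occupies its ATP pocket and was developed from NCP22, and halofuginol is the alcohol to which the ketone of HFG is reduced. Nothing in the labels says that replicates came from separate cultures, so p-values measure only the spread between these samples. The 6 h samples were frozen overnight before RNA extraction and the 24 h samples were kept on ice, so that time and storage cannot be told apart. The comparisons of one line and time share their 3 DMSO libraries.

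Complex I (NDUF genes) passes electrons from NADH to ubiquinone, complex II (SDH genes) does so from succinate as an enzyme of the citric acid cycle, complex III (UQCR genes) passes them to cytochrome c, complex IV (COX genes) reduces oxygen, and complex V (ATP5 genes) is the ATP synthase that uses the proton gradient built by complexes I, III and IV. Complex II is encoded wholly in the nucleus, whereas the other complexes combine nuclear subunits with subunits encoded by mitochondrial DNA. Plasma cells and myeloma cells secrete or hold much immunoglobulin, and the chain supplies ATP for protein synthesis and folding. Many of these genes are known targets of the transcription factors NRF1, GABPA (an ETS factor) and YY1.

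The promoters were read first, as a description of the genes. RefSeq windows (GRCh38.p14) from 250 bases before to 50 bases after the transcription start were at hand for 71 of the 90 genes. The 19 without a window include NDUFB9, SDHC and ATP5F1B. The NRF1 motif GCGCANGCG, searched on both strands, was present in 24 of the 71 (33.8%), against 9.02% of all 27305 genes with a window. The ETS motif CCGGAAG was present in 21 (29.6%, against 12.2%), the YY1 motif AANATGGCG in 17 (23.9%, against 3.85%) and the cyclic AMP response element TGACGTCA in 5 (7.04%, against 2.25%). At least 1 of the first 3 motifs was found in 46 windows (64.8%, against 21.5%). A match describes the letters and is not a measured binding site. The genes with a window were not limited to those expressed in these cells, and matches were not compared with fold changes. Stretches from 5 genes to which the expression results return follow, on the strand of the gene, with motif matches in capitals.
SDHA, chr5:218150-218329, plus strand: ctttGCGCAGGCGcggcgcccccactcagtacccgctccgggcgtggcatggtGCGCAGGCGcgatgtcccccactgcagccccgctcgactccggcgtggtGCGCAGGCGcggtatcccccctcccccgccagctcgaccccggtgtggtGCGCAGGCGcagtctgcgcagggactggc
NDUFA8, chr9:122159740-122159839, minus strand: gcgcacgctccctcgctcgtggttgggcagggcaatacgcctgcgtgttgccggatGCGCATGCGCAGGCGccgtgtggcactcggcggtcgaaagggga
NDUFS3, chr11:47578964-47579113, plus strand: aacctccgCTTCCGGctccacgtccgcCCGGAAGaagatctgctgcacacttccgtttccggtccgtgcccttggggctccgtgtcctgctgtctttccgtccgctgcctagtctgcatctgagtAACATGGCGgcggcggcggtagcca
ATP5MC1, chr17:48892687-48892806, plus strand: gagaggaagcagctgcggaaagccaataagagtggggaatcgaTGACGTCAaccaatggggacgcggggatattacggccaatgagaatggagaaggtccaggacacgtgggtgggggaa
COX6B1, chr19:35648243-35648362, plus strand: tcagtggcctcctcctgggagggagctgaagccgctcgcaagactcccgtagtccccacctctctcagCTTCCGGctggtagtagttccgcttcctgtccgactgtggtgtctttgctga
The SDHA stretch holds 4 NRF1 matches that begin 166, 117, 68 and 19 bases before the start, in repeated units 49 bases apart. In NDUFA8 several NRF1 matches overlap across the start. NDUFS3 holds a pair of ETS matches on opposite strands before the start and a YY1 match after it. ATP5MC1 holds the cyclic AMP response element 57 bases before the start, and COX6B1 holds 1 ETS match 12 bases before it.

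Total counts ran from 1666325 to 5761682 in AMO1 and from 2487872 to 6596543 in L363-CFZr, and the subunit genes together took 9351.9 to 24169.3 counts-per-million (CPM) of a library. All 9 plasma cell markers were above 5 CPM on average in both lines, and the 13 markers of other cell types were each below 5 CPM. No 2 replicates were identical, and their log2 CPM correlated with r of 0.939 to 0.994. The column names of the deposited counts end in numbers from 1 to 22, which recur 3 times in the order of the samples. Each run was taken here as a set, and what a set stands for is not stated. Treated AMO1 libraries at 24 h (except CFZ replicate 1) belonged to another set than their DMSO controls, and so did HFG, halofuginol and replicate 3 of NCP22 in L363-CFZr at 6 h, while L363-CFZr at 24 h lay within 1 set.

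In 4 groups 1 library stood apart in the subunit genes themselves, measured as the median log2 difference of the subunit genes from the DMSO mean of the same line and time. AMO1 NCP26 replicate 1 at 6 h was at 0.03, whereas replicates 2 and 3 were at −0.49 and −0.50. AMO1 CFZ replicate 2 at 24 h was at −0.79, against 0.05 and 0.10 in replicates 1 and 3. L363-CFZr NCP26 replicate 2 at 6 h was at 0.14, against −0.32 and −0.49. L363-CFZr DMSO replicate 2 at 24 h was at −0.76, against 0.41 and 0.37, so that the control mean of that line and time lay between its own replicates. Counts and medians of subunit genes that rest on these libraries are given with and without them. Since the libraries were picked by the subunit genes, the values without them follow in part from that choice. They describe the other replicates and are not separate support. The number of genes with a count differed too. It was 15581 in AMO1 NCP26 replicate 1 at 6 h, against 13577 and 13636. It was 14414 in AMO1 CFZ replicate 2 at 24 h, against 13720 and 14007, and 14353 in L363-CFZr DMSO replicate 2 at 24 h, against 13564 and 13663. L363-CFZr NCP26 replicate 2 at 6 h, at 13677, lay between its replicates (14152 and 13600). Whether whole libraries stood apart was not tested.

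**Figure D1:**
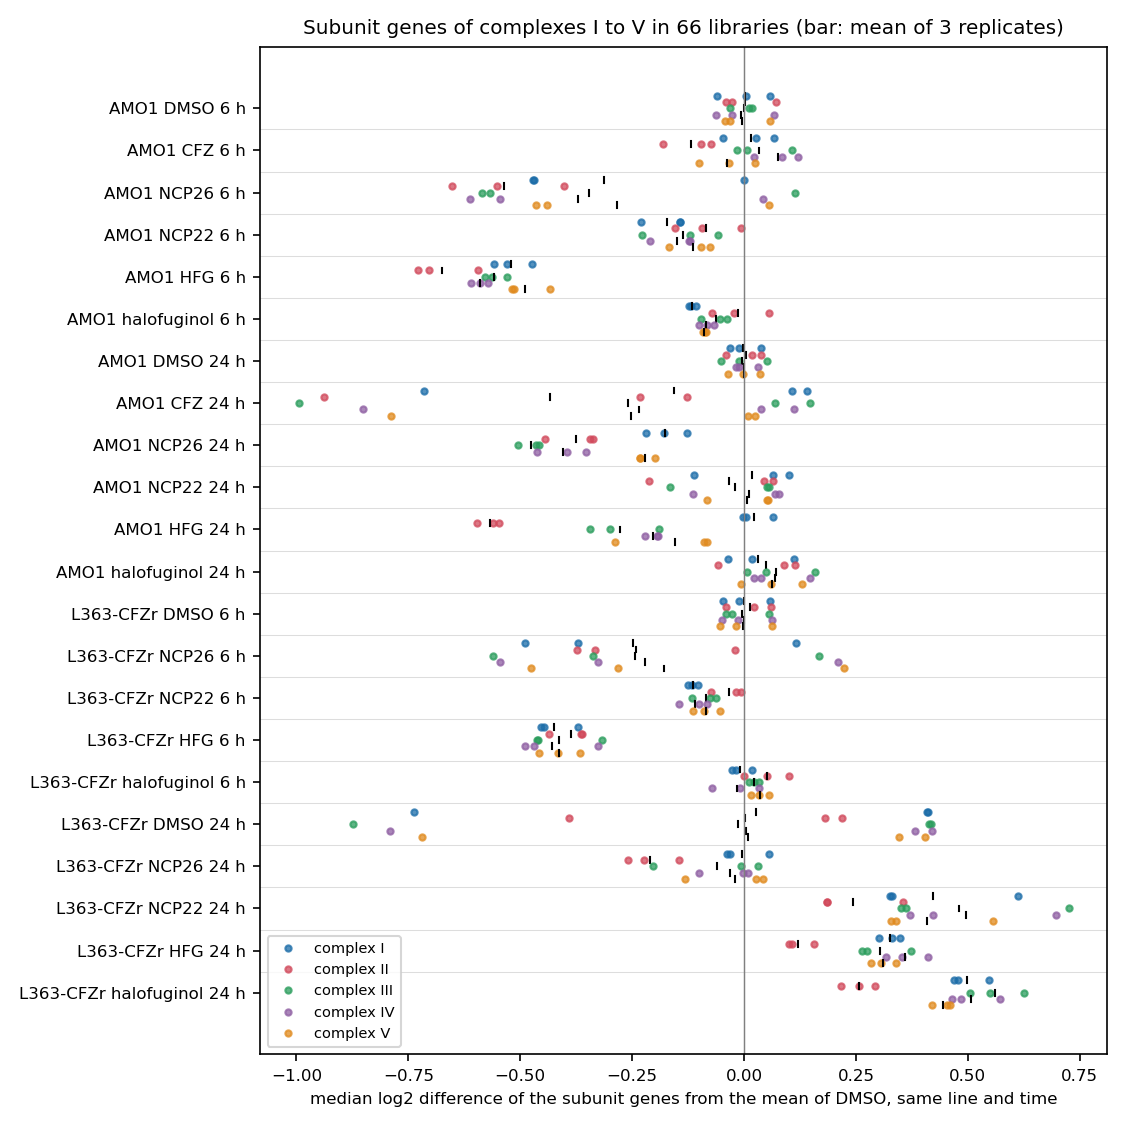
Median log2 difference of the subunit genes of each complex from the DMSO mean of the same line and time (x axis), for each of the 66 libraries in 22 groups (y axis). Colours mark complexes I to V and black bars the mean of 3 replicates. AMO1 HFG at 6 h spans −0.73 (complex II, replicate 3) to −0.43 (complex V, replicate 2). L363-CFZr DMSO at 24 h spans −0.87 (complex III, replicate 2) to 0.42 (complex IV, replicate 1).

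Of the 89 genes, 80 were tested in all 18 comparisons with DMSO and had a mean of at least 5 CPM, from 6.35 CPM for the read-through gene ATP5MF-PTCD1 to 1720 CPM for ATP5F1B, the catalytic beta subunit of ATP synthase. Another 7 passed the filter on low counts in no comparison. They were the tissue-restricted isoforms COX4I2 (no count in any library), COX6A2, COX6B2, COX7A1, COX7B2 and COX8C, and ATP5MGL, none of which exceeded 1.30 CPM in a library. NDUFA4L2, a paralogue of NDUFA4 known for its induction by hypoxia, was tested in 12 of the 18 comparisons, and the read-through gene NDUFC2-KCTD14 in 1. The 89 genes lie on 22 chromosomes. In 14 of them more than 10% of the 31-base words of their transcripts also occur in other genes of the table, among them NDUFA13 (19.24%), NDUFS3 (17.91%) and COX6A1 (20.58%), so that their counts depend on how shared reads were divided.

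HFG lowered the subunit genes of all 5 complexes in AMO1 at 6 h. In the quasi-likelihood test of edgeR, with p adjusted over every tested gene by the Benjamini-Hochberg procedure and called under 0.05, 72 of 81 tested subunit genes fell, against 26.6% of the 10737 tested genes. The median log2 fold change of the 81 was −0.50, where the median of all tested genes was 0.01. The lower genes were 34 of 37 in complex I, 3 of 4 in complex II, 8 of 8 in complex III, 11 of 13 in complex IV and 16 of 19 in complex V. The medians were −0.51, −0.65, −0.52, −0.48 and −0.42 in that order. The other 9 genes did not pass the test: NDUFS1, NDUFA5, NDUFS4, SDHD, COX7A2L, NDUFA4L2, ATP5F1E, ATP5ME and ATP5MF-PTCD1. In 41 genes the fall was at least 0.5 on the log2 scale, and in 3 at least 1.

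The fall was led by NDUFB9 (GRCh38 chromosome 8, 124539101 to 124580648), an accessory subunit of the membrane arm of complex I. Its level was 203, 215 and 199.9 CPM with DMSO and 93.7, 97.8 and 91.6 CPM with HFG. The groups were far apart, with a log2 fold change of −1.09 ± 0.0761 (SE; adjusted p = 1.5e-08). NDUFA8 (chromosome 9, 122144058 to 122159779), an accessory subunit that carries cysteine motifs, stood at 64.1, 71.7 and 65.6 CPM with DMSO and 31.1, 30.7 and 31.5 CPM with HFG, a change of −1.07 ± 0.10. ATP5MC1 (chromosome 17, 48892765 to 48895871), 1 of the 3 genes for subunit c of the ATP synthase rotor, went from 173, 162 and 146 CPM to 78.3, 79.6 and 75.8 CPM, a change of −1.01 ± 0.0835 (95% interval −1.19 to −0.83; adjusted p = 9.7e-08). NDUFS3 (chromosome 11, 47565336 to 47584562), a core subunit of the peripheral arm, went from 96.2, 99 and 95 CPM to 56, 53.4 and 47.6 CPM (−0.87 on the log2 scale). In each of these genes the highest HFG library lay below the lowest DMSO library. Called genes were named partly by this lack of overlap, so it is not separate support. It was seen, in either direction, in 6478 of the 10737 tested genes.

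SDHA (chromosome 5, 218303 to 257082), the flavoprotein that oxidises succinate, was at 488, 514 and 456 CPM with DMSO and 276, 278 and 291 CPM with HFG, a change of −0.75 ± 0.0683. SDHC (chromosome 1, 161314381 to 161363206), a membrane anchor of complex II, went from 182, 185 and 215 CPM to 110.2, 101 and 108 CPM (−0.83 ± 0.0854), while SDHD, the other anchor, did not pass (−0.23 ± 0.10, adjusted p = 0.063). UQCRFS1 (chromosome 19, 29205320 to 29213151), the Rieske iron-sulfur protein of complex III, fell from 198, 196 and 192 CPM to 121, 118 and 118 CPM. COX6B1 (chromosome 19, 35648323 to 35658782), a small subunit of complex IV at the side that faces cytochrome c, went from 321, 322 and 254 CPM to 154, 172 and 158 CPM (−0.85 ± 0.0907, adjusted p = 1.3e-06). The structural genes COX4I1 (−0.48), COX7A2 (−0.67) and NDUFA4 (−0.48) fell as well, as did ATP5F1A (−0.53) and the catalytic subunit ATP5F1B (−0.52). Among the genes that did not pass was NDUFS1, the largest subunit of complex I, at 208, 199.8 and 207 CPM with DMSO and 185, 178 and 181 CPM with HFG (−0.14 ± 0.0709, adjusted p = 0.1).

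The subunit genes have short transcripts, with a median of 760 bases over the members against 3380 bases over 10031 expressed genes. Their median GC content, 47.1%, was near the 47.8% of the expressed genes. Fold changes in this comparison ran with GC content over all genes (r = −0.32). With an offset for GC content and length, 55 subunit genes were lower (26.6% of all genes lower) and 5 higher, and the median was −0.31. The offset took GC content and length together, and their parts in this shift were not separated. ATP5MC2 and ATP5IF1, which fell by the main test, were then at 0.09 and 0.23 on the log2 scale. Because these were bulk samples, fewer cells of a type and less RNA per cell cannot be told apart. Genes for cytosolic ribosomal proteins fell in 78 of 81 cases by the main test (26.6% of all genes lower) with a median of −0.51.

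NCP26 gave fewer calls in AMO1 at 6 h, with 25 of 81 subunit genes lower (19.2% of all 10666 tested genes were lower) and a median of −0.28. Replicate 1 lay near the DMSO libraries over all subunit genes (0.03) but not in complex II (−0.40). Without it, 66 were lower and the median was −0.46 (40.6% of all genes called in either direction). The count was 15 without DMSO replicate 2 and 16 without NCP26 replicate 3. Complex I had 14 lower genes of 37, complex II 3 of 4, complex III 3 of 8, complex IV 1 of 13 and complex V 4 of 19. Without replicate 1 these counts were 30, 3, 8, 11 and 14. NDUFS3 changed most among the calls, from 96.2, 99 and 95 CPM with DMSO to 61.1, 38.9 and 44.6 CPM with NCP26 (−1.01 ± 0.14, adjusted p = 0.00022). NDUFB9 went to 127, 93.2 and 93.3 CPM (−0.98 ± 0.12) and ATP5MC1 to 117, 67.6 and 69.9 CPM (−0.92 ± 0.17), and in both replicate 1 was the highest of the 3. Without replicate 1 the changes were −1.18 for NDUFS3, −1.11 for NDUFB9 and −1.19 for ATP5MC1. SDHA was lower in all 3 libraries alike, at 318, 306 and 302 CPM (−0.65 ± 0.0974, adjusted p = 0.00032). NDUFA8 (−0.92), UQCRH (−0.68), the hinge protein of complex III, and the complex II genes SDHB (−0.50) and SDHC (−0.57) were also lower.

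In L363-CFZr HFG at 6 h gave 70 lower and 3 higher of 80 tested subunit genes, where 27.5% of the tested genes were lower, with a median of −0.39. They covered 32 of 37 genes of complex I, 3 of 4 of complex II, 8 of 8 of complex III, 11 of 12 of complex IV and 16 of 19 of complex V. These HFG libraries were of another set than their DMSO controls, and with the set as a term of the fit, 2 genes were lower (12% of all genes called in either direction). That term rests on NCP22 at 6 h, with replicate 3 alone in set 3. HFG and halofuginol at 6 h in this line lay within 1 set and are compared below. With the GC and length offset 55 were lower and 6 higher (20.1% of all genes lower). NDUFB9 was again the gene with the lowest fold change, from 313, 281 and 319 CPM to 135, 157 and 149 CPM (−1.02 ± 0.0697, adjusted p = 2.3e-11). ATP5MC1 went from 182, 175 and 197 CPM to 96.1, 97.4 and 93.7 CPM (−0.92), NDUFS3 from 115, 114 and 122 CPM to 63.8, 69.3 and 61.4 CPM (−0.83) and COX6B1 from 395, 399.5 and 420.4 CPM to 226, 244 and 219 CPM (−0.79). In these genes no HFG library reached the lowest DMSO library. Called genes were named partly by this lack of overlap, which was seen, in either direction, in 6228 of the 10478 tested genes. Of the 80 genes tested in both lines, 68 were lower in both, which is 94.4% of the 72 lower in AMO1 and 97.1% of the 70 lower in L363-CFZr. With most genes lower in each line, such an overlap follows largely from these counts and is not separate support. In L363-CFZr 20 genes fell by at least 0.5 and 1 by at least 1.

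COX7A2L (chromosome 2, 42333546 to 42425088), which encodes a factor that joins complexes III and IV into supercomplexes, moved the other way in L363-CFZr. It was at 119.7, 116 and 128 CPM with DMSO and 198, 193 and 184 CPM with HFG, with every HFG library above every DMSO library (0.69 ± 0.0685, adjusted p = 1.6e-08). In AMO1 at the same time it was at 128, 139 and 133 CPM with DMSO and 134, 130.3 and 128 CPM with HFG (0.01 ± 0.076, adjusted p = 0.93). The difference of the HFG effect between the lines was 0.69 ± 0.0945 (adjusted p = 2.1e-05). The other subunit genes called higher in L363-CFZr, NDUFA5 (0.24) and NDUFS1 (0.18), were lower under the GC and length offset. Over all 81 genes tested for a difference between the lines, 14 had a less negative or more positive HFG effect in L363-CFZr and ATP5ME had a more negative one, where 20.7% of all genes were called. The larger falls in AMO1 included UQCRH (difference 0.41 ± 0.0902), NDUFA8 (0.40 ± 0.13), SDHA (0.33 ± 0.086) and SDHC (0.35 ± 0.12). This count fell to 8 without AMO1 HFG replicate 3, to 9 without L363-CFZr DMSO replicate 1, HFG replicate 1 or HFG replicate 2, and to 0 with the set as a term. The test of this difference was added after the data were seen.

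**Figure D2:**
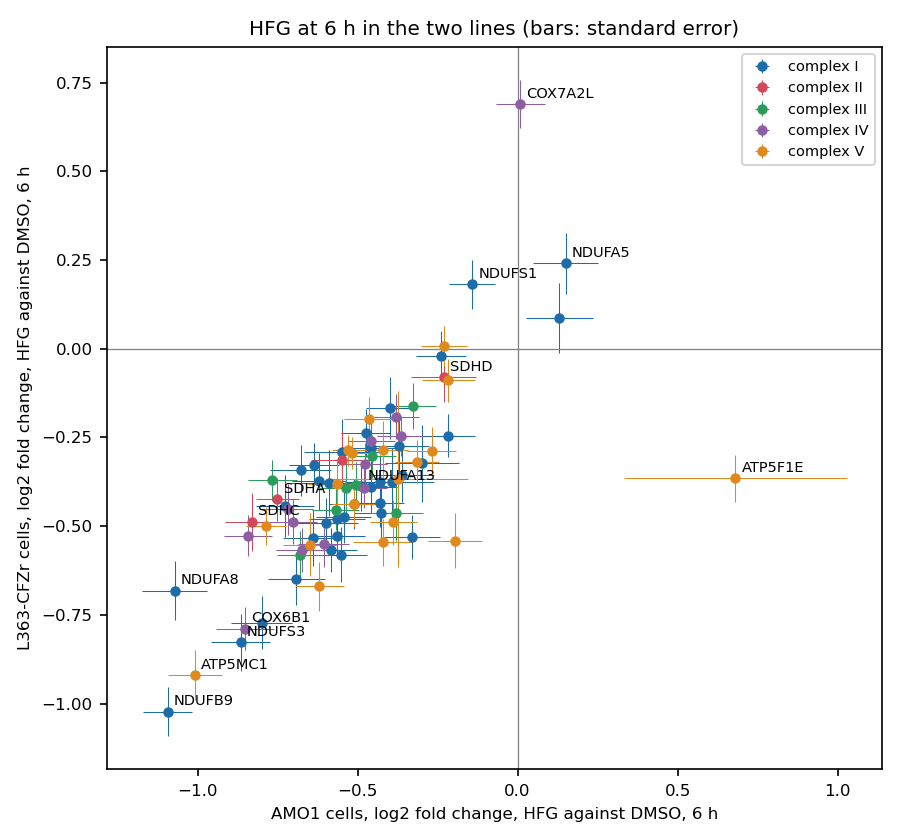
Log2 fold change of each subunit gene, HFG against DMSO at 6 h, in AMO1 (x axis) and in L363-CFZr (y axis). Points are genes coloured by complex and bars are standard errors; most genes lie below 0 on both axes, NDUFB9 lies near −1.1 and −1.0, and COX7A2L stands apart at 0.01 and 0.69.

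NCP26 in L363-CFZr at 6 h gave 2 higher and 4 lower of 81 subunit genes (18.8% of all genes were called), with a median of −0.16. Without NCP26 replicate 2, 68 were lower and 2 higher, with a median of −0.39 and 36.7% of all genes called in either direction. Without DMSO replicate 1 or 3 there were 3 and 2 calls, and with the GC and length offset 30 were lower and 2 higher. The lower genes were NDUFB9 (−0.73 ± 0.16), ATP5MC1 (−0.66 ± 0.14), NDUFS3 (−0.60 ± 0.17) and NDUFA8 (−0.58 ± 0.15). NDUFB9 stood at 152, 238 and 152 CPM with NCP26 against 313, 281 and 319 CPM with DMSO, and replicate 2 was again closest to the controls. COX7A2L was higher, at 188, 259.8 and 167 CPM (0.78 ± 0.15, adjusted p = 0.0056), and NDUFA4L2 rose from 0.987, 1.7 and 1.5 CPM to 4.87, 4.48 and 4.62 CPM (1.73 ± 0.33), a low level in both groups. The NCP26 effect at 6 h was not called different between the lines for any of 82 genes by edgeR, with 3 at an unadjusted p under 0.05 and 1 by the Wald test of DESeq2, while 2.71% of all genes were called.

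The compound pairs were compared directly at the same dose and time, in 8 comparisons of HFG with halofuginol and NCP26 with NCP22 and 2 of NCP26 with HFG, each adjusted over all genes tested. HFG and halofuginol differ in the ketone of HFG, which is a hydroxyl group in halofuginol. At 6 h in AMO1, 72 of 82 subunit genes were lower with HFG than with halofuginol and 1 was higher (26.1% of all genes were lower), with a median difference of −0.42. In L363-CFZr, 73 of 80 were lower and 1 was higher (24.2% of all genes lower), with a median of −0.39. In each line these 6 h libraries of HFG and halofuginol lay within 1 set. All of complexes II and III were lower in both lines, 4 of 4 and 8 of 8 genes. Of the genes lower with HFG than with halofuginol, 68 were shared, which is 94.4% of those in AMO1 and 93.2% of those in L363-CFZr. This overlap too follows largely from the high counts in each line. NDUFB9 with halofuginol was at 169, 182 and 175 CPM in AMO1 and 287, 296 and 290.4 CPM in L363-CFZr, and the difference of HFG from it was −0.88 ± 0.0636 in AMO1 (adjusted p = 5.4e-09) and −0.96 ± 0.0502 in L363-CFZr (adjusted p = 1.1e-15). The higher gene was ATP5F1E in AMO1, whose replicates varied widely, and COX7A2L in L363-CFZr (0.49 ± 0.0599).

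Halofuginol itself moved few subunit genes at 6 h. In AMO1 1 of 82 was called against DMSO (3.62% of all genes were called), namely ATP5F1E (−0.44, adjusted p = 0.046), with 16 at an unadjusted p under 0.05, 0 calls by the Wald test of DESeq2 and a median of −0.08. That count was 12 without DMSO replicate 3 and 0 without DMSO replicate 1 or any halofuginol replicate. For ATP5MC1, at 173, 162 and 146 CPM with DMSO and 150, 159 and 142 CPM with halofuginol, the interval of the difference was −0.24 to 0.07, and for SDHA it was −0.11 to 0.13. In L363-CFZr 6 genes were higher and 7 lower of 80 (25.8% of all genes called), all by less than 0.3 on the log2 scale, with a median of 0.02. NDUFV1, the flavoprotein that binds NADH, was lowest (−0.29 ± 0.0626) and NDUFA5 highest (0.28 ± 0.0724). That count was 5 without halofuginol replicate 2 and 4 without replicate 3, and with the GC and length offset 1 was higher and 4 were lower. These libraries too were of another set than their controls, and with the set as a term none was called.

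NCP22 lowered 12 of 81 subunit genes in AMO1 at 6 h (6.08% of all genes were lower), with a median of −0.14. Of the 12, 9 were complex I genes, led by NDUFS3 (−0.47 ± 0.0858), NDUFA3 (−0.37 ± 0.0934) and NDUFB9 (−0.36 ± 0.0734), and the others were COX5B, UQCR11 and UQCRC1. The count was 24 without DMSO replicate 3 and 2 to 6 without another DMSO replicate or an NCP22 replicate. NCP26 was lower than NCP22 in 14 of 81 genes (12.2% of all genes were lower), and in 50 without NCP26 replicate 1 (30.3% of all genes called in either direction). It was 9 without NCP26 replicate 3 and 7 without NCP22 replicate 1. NDUFA8 (−0.69 ± 0.11), ATP5MC1 (−0.66 ± 0.17) and NDUFB9 (−0.59 ± 0.12) differed most between them. SDHA, at 452, 458 and 423 CPM with NCP22, differed from NCP26 by −0.50 ± 0.0836. In L363-CFZr no subunit gene of 80 was called with NCP22 at 6 h by edgeR or by DESeq2, with 12 at an unadjusted p under 0.05, and 0% of all genes were called. The interval of the NCP22 change there was −0.24 to 0.07 for NDUFB9 and −0.18 to 0.10 for SDHA. Against NCP22, NCP26 in that line gave 2 higher and 4 lower of 82 (20.4% of all genes called), and 53 lower and 2 higher without NCP26 replicate 2 (33.6% called). Between 1 and 2 calls were left without NCP26 replicate 1 or any NCP22 replicate, the GC and length offset gave 3 higher and 25 lower, and with the set as a term none was called.

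At 24 h the AMO1 response was split. NCP26 gave 13 higher and 49 lower of 81 subunit genes, where 30.9% of all genes were lower and 29.8% higher, with a median of −0.33. Complexes II and III were lower almost throughout, in 4 of 4 and 7 of 8 genes with medians of −0.38 and −0.48. In complex I 18 genes were lower and 6 higher, in complex IV 8 and 2, and in complex V 12 and 5. With the set as a term, since all 3 NCP26 libraries were of another set than the controls, 6 were lower and 1 higher (13.9% of all genes called in either direction). NDUFB9 went from 131, 135 and 149 CPM to 40.4, 42.7 and 50.7 CPM (−1.64 ± 0.0864, adjusted p = 1.8e-16), so that each NCP26 library was below the lowest control by more than the spread within either group. Groups did not overlap in 6864 of the 10787 tested genes, and called genes were named partly by this. COX6A1 (chromosome 12, 120438090 to 120440737), a small subunit of complex IV, fell from 229, 232 and 237 CPM to 107, 102 and 101 CPM (−1.18 ± 0.0598). NDUFS3 (−1.21), ATP5MC1 (−1.02) and UQCRFS1 (−1.01) followed.

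The genes higher with NCP26 at 24 h were led by NDUFA5 (chromosome 7, 123536997 to 123557904), an accessory subunit of the peripheral arm of complex I. It stood at 70.8, 57.6 and 64.1 CPM with DMSO and 112, 104 and 102 CPM with NCP26 (0.73 ± 0.0812, adjusted p = 4e-09). NDUFS4 (chromosome 5, 53560633 to 53683338), a subunit needed for a stable peripheral arm, went from 38.2, 41.6 and 35.1 CPM to 60.4, 55.8 and 54.3 CPM (0.57). NDUFA13 (chromosome 19, 19515736 to 19529054), also known as GRIM-19, went from 99.4, 114 and 116 CPM to 160.3, 149 and 144 CPM (0.44). NDUFS6 (0.35) and ATP5IF1 (0.35), the inhibitor that keeps ATP synthase from running in reverse, and COX7A2L (0.28) were higher as well.

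HFG at 24 h in AMO1 gave 17 higher and 38 lower of 81 subunit genes, where 30.5% of all genes were lower and 28.5% higher, with a median of −0.10. The complexes separated by their medians. Complex II was at −0.58, complex III at −0.29, complex IV at −0.20, complex V at −0.07 and complex I at 0.02. All 3 HFG libraries showed complex II lowest, at −0.60, −0.56 and −0.55, and complex I highest, at 0.0043, 0.064 and −0.0028. With the set as a term 2 genes were lower and 1 higher (19.7% of all genes called in either direction). SDHA was at 479, 509 and 473 CPM with DMSO and 212, 202 and 217 CPM with HFG, the lowest group of this gene in AMO1 (−1.21 ± 0.0527, 95% interval −1.32 to −1.10, adjusted p = 7.6e-13). SDHC went from 160.3, 147 and 155 CPM to 83.9, 92.3 and 89.2 CPM (−0.80) and SDHB, the iron-sulfur subunit, changed by −0.36. SDHD (chromosome 11, 112086824 to 112120016) was higher, at 71.5, 61.3 and 62.7 CPM against 59.8, 47 and 56.9 CPM (0.25 ± 0.11, adjusted p = 0.049).

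ATP5F1B fell with HFG at 24 h from 1824, 1805 and 1864 CPM to 1051, 1061 and 1114 CPM (−0.77 ± 0.036), as did NDUFS3 (−0.80), NDUFB9 (−0.80) and ATP5MC1 (−0.72). Higher genes included NDUFA13, at 164, 175 and 167 CPM (0.61), NDUFA5 (0.57), NDUFA6 (0.50), NDUFB10 (0.45), COX7A2L (0.39) and ATP5IF1 (0.39). NDUFA13 had been lower at 6 h, at 133, 138 and 121 CPM against 196, 189 and 176 CPM. The change of the HFG effect from 6 to 24 h was called for 57 of 81 genes, 54 of them upward (18.5% of all genes upward and 21% downward), with a median of 0.44. It was 1.14 ± 0.11 for NDUFA13 and −0.43 ± 0.0836 for SDHA, whose level relative to DMSO went further down. With the GC and length offset the split was 25 upward and 12 downward, and with the set as a term 21 genes were called. For NCP26, 5 of the changes with time were upward and 4 downward of 81 (17.5% of all genes called), and 26 and 4 without NCP26 replicate 1 at 6 h (20.8% called). Without AMO1 DMSO replicate 2 or NCP26 replicate 1 at 24 h 5 were called, and with the set as a term none was called. Both tests over time were added after the data were seen.

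Between compounds at 24 h in AMO1, NCP26 was lower than NCP22 in 44 and higher in 8 of 81 genes (25.7% of all genes lower and 26.3% higher), within 1 set. NDUFB9 was at 106, 132 and 139.5 CPM with NCP22, and the difference was −1.48 ± 0.11 (adjusted p = 1.5e-07). NDUFS3 (−1.14) and COX6A1 (−1.09) were lower and NDUFA5 (0.68) and NDUFS4 (0.66) higher, so that the directions named against DMSO were also present within the set. HFG was lower than halofuginol in 35 and higher in 11 of 81 genes (28.7% lower and 27.9% higher), with complex II at a median of −0.60 and complex I at 0.03. SDHA stood at 493, 577 and 506 CPM with halofuginol, a difference of −1.30 ± 0.0696 (adjusted p = 3.2e-11). NCP26 was lower than HFG in 41 and higher in 12 of 81 genes (22.4% lower and 22.6% higher, median −0.19). NDUFB9 was lower with NCP26 (−0.85 ± 0.10), whereas SDHA (0.62 ± 0.0532) and SDHC (0.50) were lower with HFG and SDHD (−0.59) was lower with NCP26. With the GC and length offset 17 were higher and 25 lower.

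NCP22 and halofuginol gave no called subunit gene of 81 in AMO1 at 24 h by edgeR. NCP22 had 6 genes at an unadjusted p under 0.05, no call by DESeq2 and 0% of all genes called. Halofuginol had 5 at an unadjusted p under 0.05, 1 call by DESeq2 and 0.183% of all genes called. The 95% interval for SDHA was −0.16 to 0.14 with NCP22 and −0.03 to 0.23 with halofuginol, and for NDUFB9 −0.33 to 0.07 and −0.29 to 0.07.

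**Figure D3:**
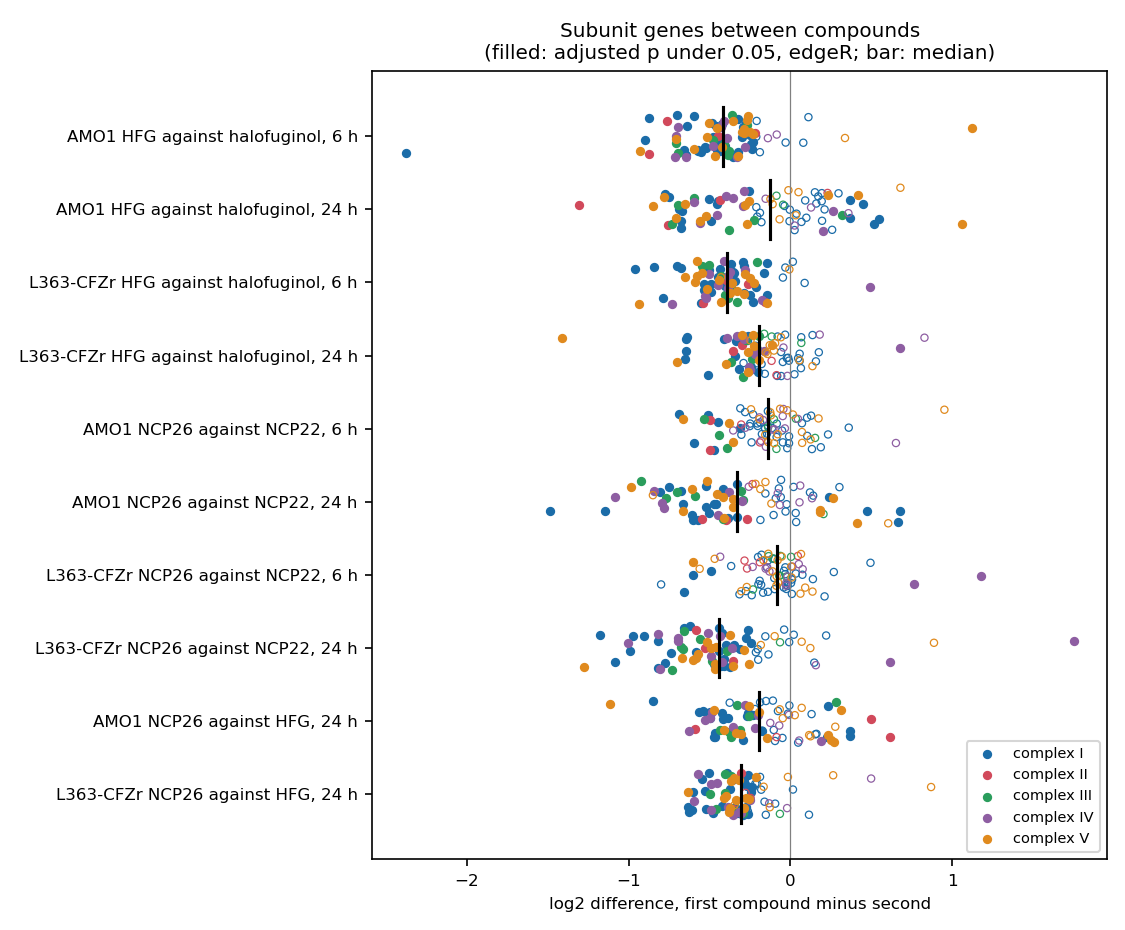
Log2 difference of each subunit gene between compounds (x axis) in 10 direct comparisons (y axis), coloured by complex. Filled points passed an adjusted p of 0.05 by edgeR and black bars are medians; the median of HFG against halofuginol at 6 h was −0.42 in AMO1 and −0.39 in L363-CFZr.

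In L363-CFZr at 24 h comparisons with DMSO rested on replicate 2 of the control. NCP26 gave 1 lower gene of 81 (7.09% of all genes called), ATP5MC1 (−1.05 ± 0.24, adjusted p = 0.04), and no gene was called when DMSO replicate 1 or 3 or any NCP26 replicate was left out. Without DMSO replicate 2, 55 were lower and 3 higher, with a median of −0.40 and 28.6% of all genes called in either direction. HFG gave no call of 81 by edgeR, with 4 at an unadjusted p under 0.05, 1 call by DESeq2 and 1.17% of all genes called, and 16 lower and 6 higher without DMSO replicate 2 (19.5% of all genes called in either direction). NCP22 and halofuginol gave no call of 80 by either tool, none at an unadjusted p under 0.05 and 0% of all genes. Their medians of 0.35 and 0.38 became 0.07 and 0.12 without DMSO replicate 2. ATP5MC1 was at 122, 62.1 and 102 CPM with DMSO, with replicate 2 the lowest, 45, 45.6 and 46.9 CPM with NCP26 and 67.8, 75.8 and 70.5 CPM with HFG.

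The direct comparisons in L363-CFZr at 24 h do not use that control and lie within 1 set. NCP26 was lower than NCP22 in 61 and higher in 2 of 81 genes (17.9% of all genes lower), with a median of −0.44. The medians were −0.41 in complex I, −0.51 in complex II, −0.61 in complex III, −0.49 in complex IV and −0.46 in complex V. ATP5MC1 was at 128, 98.2 and 107 CPM with NCP22, above every NCP26 library, a difference of −1.27 ± 0.11 (adjusted p = 8.4e-07). Groups did not overlap in 5001 of the 10635 tested genes. NDUFB9 was at 220.3, 179.7 and 174 CPM with NCP22 and 68.4, 94.1 and 89.3 CPM with NCP26 (−1.18 ± 0.12), and NDUFV2, a core subunit with an iron-sulfur cluster, at 294, 239 and 243 CPM and 117, 124 and 124 CPM (−1.09 ± 0.0944). NDUFA4L2 (1.75 ± 0.38) and COX7A2L (0.62 ± 0.12) were the higher genes. NDUFA4L2 was at 2.39, 1.08 and 1.96 CPM with NCP22 and 7.28, 4.32 and 7.17 CPM with NCP26.

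HFG in L363-CFZr at 24 h was lower than halofuginol in 38 and higher in 1 of 81 genes (12.3% of all genes lower), with a median of −0.19. ATP5MC1 (−0.70 ± 0.0826) fell and COX7A2L, at 137, 142 and 138 CPM with halofuginol and 203, 239 and 226 CPM with HFG, was the higher gene (0.68 ± 0.0697). With the GC and length offset 35 were lower and 7 higher. NCP26 was lower than HFG in 56 of 81 genes (7.43% of all genes lower), with a median of −0.30. NDUFA8 (−0.63), ATP5MC1 (−0.63) and NDUFB9 (−0.60) were lowest in NCP26 against HFG. This count was 33 without HFG replicate 2, 34 without HFG replicate 3 and 28 with the GC and length offset.

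The effects at 24 h were also tested for a difference between the lines. The HFG effect differed in 10 of 81 subunit genes, all with a less negative or more positive effect in L363-CFZr (16.9% of all genes called). SDHA had the largest difference among them, at 1.28 ± 0.15 (adjusted p = 0.00015), followed by ATP5F1B (0.90 ± 0.18). In L363-CFZr SDHA stood at 266, 192 and 250.1 CPM with DMSO and 251, 251 and 245 CPM with HFG, which overlap. Without L363-CFZr DMSO replicate 2 the split was 27 and 13 (33.4% of all genes called), without replicate 1 it was 15 and 1, and without HFG replicate 3 there were 6. With the GC and length offset 24 were more positive and 4 more negative in L363-CFZr, and with the set as a term 1 gene was called. The NCP26 effect differed in no gene of 81 by edgeR, with 10 at an unadjusted p under 0.05, 2 calls by DESeq2 and 5.41% of all genes called, and in 34 without L363-CFZr DMSO replicate 2, 11 of them more positive and 23 more negative in L363-CFZr (21.1% of all genes called).

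**Figure D4:**
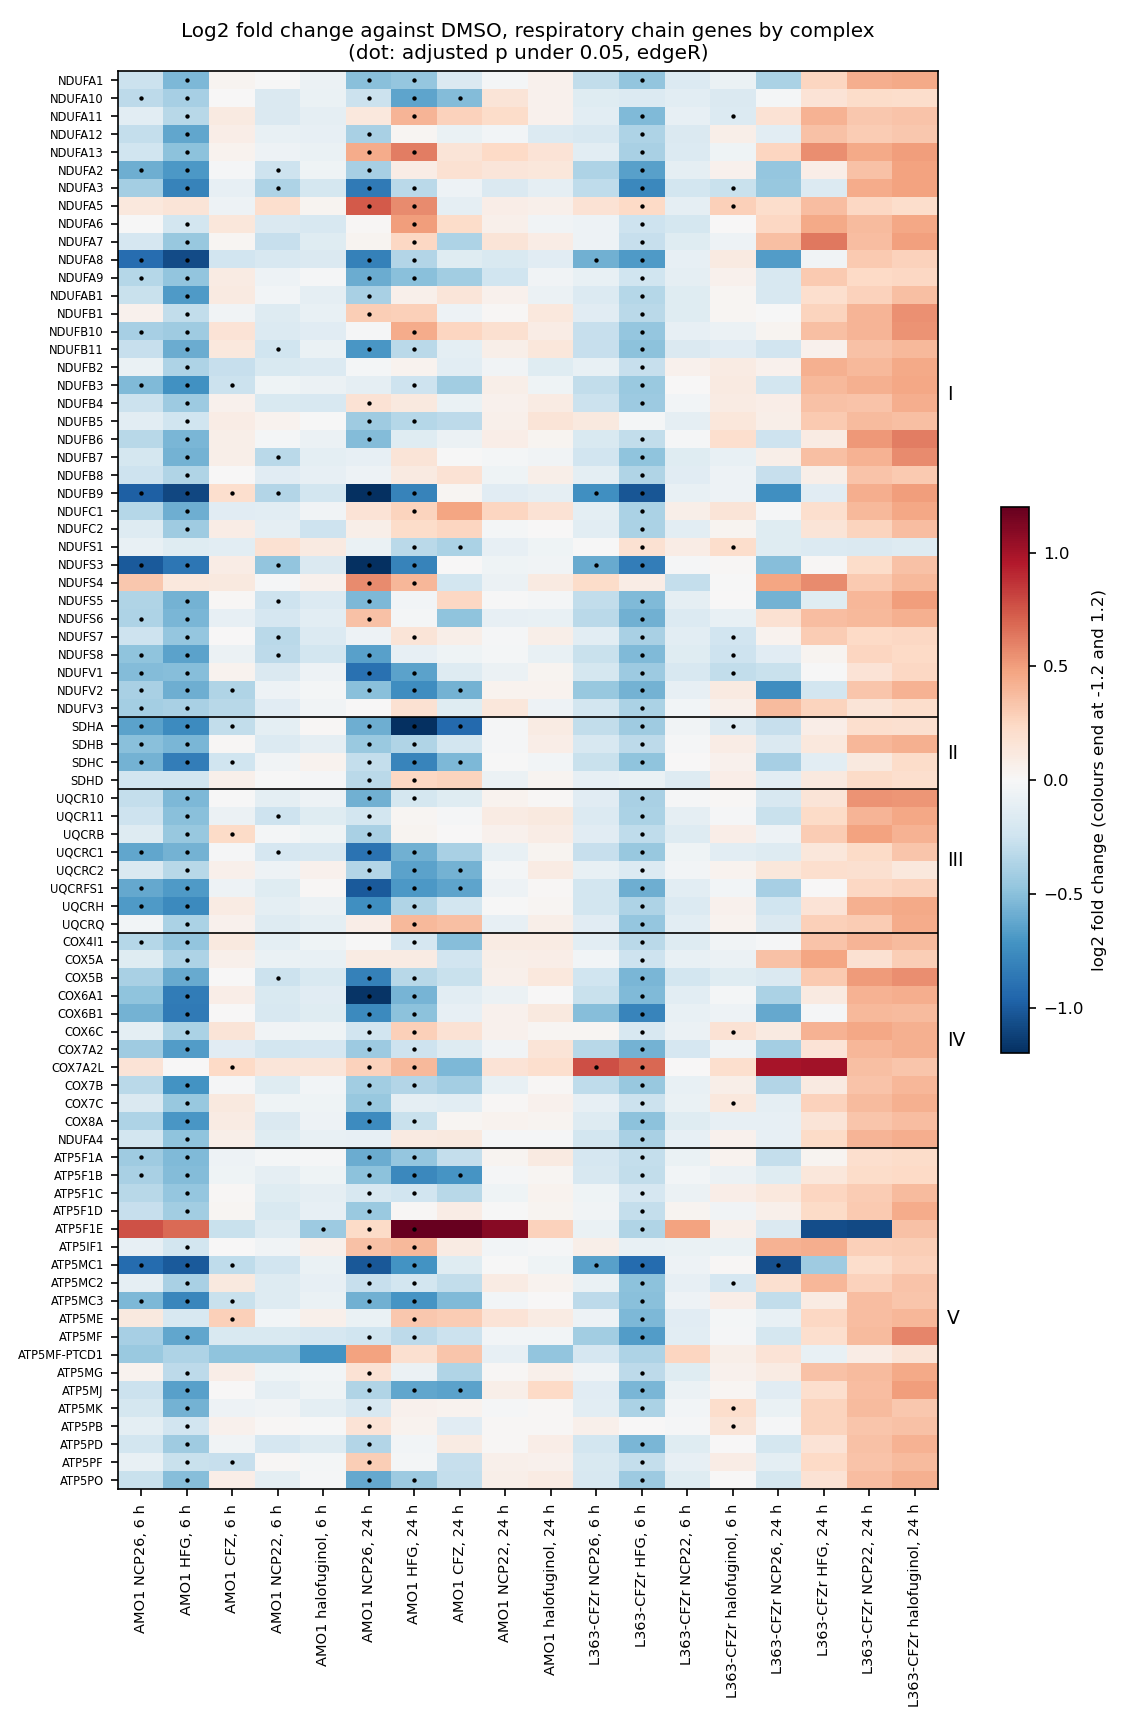
Log2 fold change against DMSO (colour, ends at −1.2 and 1.2) of 79 subunit genes tested throughout (rows, by complex) in the 18 comparisons with DMSO (columns). Dots mark an adjusted p under 0.05 by edgeR; the HFG columns at 6 h hold 72 and 70 lower genes over all tested, and the 2 columns on the right hold none.

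Over the 18 comparisons with DMSO, SDHA and ATP5MC1 were each lower in 8 and higher in none, and NDUFV2, NDUFS3 and SDHC were lower in 7. NDUFB9 was lower in 7 and higher in 1. COX7A2L was higher in 5, NDUFA5 in 4 and NDUFA4L2 in 3, and these 3 were lower in none. NDUFA5, NDUFS4, COX7A2L and ATP5MF-PTCD1 were the genes tested throughout that were called lower in no comparison. The comparisons share controls, so these counts describe the genes and are not independent.

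Set against the mean of each line, the subunit genes were highest at 6 h in the DMSO, NCP22, halofuginol and, in AMO1, CFZ groups. The group value was the middle of the 3 library medians. In AMO1 it was 0.38 with DMSO, 0.38 with CFZ, 0.26 with halofuginol and 0.24 with NCP22, and −0.13 with NCP26 and −0.17 with HFG. At 24 h it was −0.08 with DMSO, −0.02 with CFZ, −0.02 with NCP22, −0.03 with halofuginol, −0.22 with HFG and −0.35 with NCP26. In L363-CFZr at 6 h it was 0.37 with halofuginol, 0.36 with DMSO, 0.25 with NCP22, 0.03 with NCP26 and −0.08 with HFG. At 24 h it was 0.03 with halofuginol, −0.09 with DMSO and NCP22, −0.13 with HFG and −0.47 with NCP26. The replicates of neighbouring groups overlapped for DMSO and CFZ at 6 h in AMO1, for DMSO and halofuginol at 6 h and NCP22 and halofuginol at 24 h in L363-CFZr, and among DMSO, NCP22 and halofuginol at 24 h in AMO1. The 4 groups with a library that stood apart overlapped more widely. AMO1 NCP26 at 6 h ran from −0.13 to 0.39, across NCP22 and halofuginol and into the range of DMSO (0.32 to 0.41). L363-CFZr NCP26 at 6 h ran from −0.12 to 0.54, across every other group of that line and time, and AMO1 CFZ at 24 h ran from −0.83 to 0.0067, overlapping all the others. L363-CFZr DMSO at 24 h ran from −1.19 to −0.07, across NCP26 and HFG and into NCP22. Complex II departed furthest from the other complexes in AMO1 HFG at 24 h, with a group median of −0.53 against −0.16 for complex I.

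CFZ, which blocks the proteasome, gave 4 higher and 7 lower of 81 subunit genes in AMO1 at 6 h (26.9% of all genes called), with a median of 0.02. The lower genes were NDUFV2 (−0.36), ATP5MC1 (−0.31), SDHA (−0.30), ATP5PF (−0.27), ATP5MC3 (−0.27), SDHC (−0.24) and NDUFB3, and the higher ones were ATP5ME (0.29), COX7A2L (0.24), UQCRB (0.23) and NDUFB9 (0.20). SDHA was at 418, 377 and 395 CPM with CFZ, below all 3 controls. Groups did not overlap in 4163 of the 10470 tested genes. Without CFZ replicate 1, 4 were lower and 2 higher, and with the GC and length offset 11 were lower and 3 higher. At 24 h 9 of 80 were lower (27% of all genes called), with a median of −0.13. SDHA, at 261, 235 and 258 CPM (−0.94 ± 0.10, adjusted p = 0.0005), and ATP5F1B, at 1191, 926 and 1198 CPM (−0.71 ± 0.13), were lower in each replicate than in each control. Groups did not overlap in 4992 of the 10674 tested genes. Without CFZ replicate 2, 26 genes were higher and 17 lower, with a median of 0.10 and 48.2% of all genes called, and SDHA was at −0.90 and ATP5F1B at −0.61. Without CFZ replicate 1, 4 were lower and 1 higher, 2 or 3 were lower without a DMSO replicate, 1 gene was called with the set as a term, and the GC and length offset gave 9 higher and 15 lower.

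Subunit c of ATP synthase is made from ATP5MC1, ATP5MC2 and ATP5MC3, which encode the same mature protein behind different import sequences. The share of ATP5MC1 in their summed CPM, which is not corrected for transcript length and so compares groups only, was 14.5%, 13.3% and 13.2% in AMO1 DMSO at 6 h. It was 10.8%, 9.32% and 9.02% with NCP26 and 10.8%, 11.1% and 10.9% with HFG, below each of the controls, and 13.7%, 14.3% and 13.1% with halofuginol, which overlap them. With CFZ it was 11.7%, 12.3% and 12.7%, also below each of the controls. At 24 h in AMO1 it was 8.98%, 9.8% and 9.52% with DMSO, 6.56%, 7.02% and 6.2% with NCP26, and 8.02%, 8.95% and 7.6% with HFG, and thus below each control with both compounds. Halofuginol was at 8.32%, 10.04% and 8.37% and NCP22 at 9.74%, 9.27% and 8.91%. Both overlapped the DMSO and the HFG values, whereas NCP26 lay below all of them. CFZ stood the other way at 24 h, at 11.3%, 12.8% and 10.2%, above each control. In L363-CFZr at 6 h it was 14.9%, 14.4% and 15% with DMSO, 12%, 11.1% and 11.6% with NCP26, and 11.8%, 11.6% and 11.1% with HFG. At 24 h in that line it was 14.5%, 13.1% and 12.7% with DMSO, replicate 2 included, 7.33%, 7.42% and 7.59% with NCP26, 8.8%, 9.76% and 8.79% with HFG, and 12.8%, 12.1% and 12.8% with NCP22. In L363-CFZr at 24 h the share of ATP5MC2 was 31.8%, 32.3% and 33.4% with NCP22 and higher with NCP26, at 43.2%, 44.3% and 42.4%. A lower ATP5MC1 share did not always go with this. With HFG at 6 h in that line ATP5MC2 was at 31%, 29.6% and 31.3%, which overlap 28.2%, 29.1% and 30.7% with DMSO. The shares are parts of 1 sum and so depend on each other. With 3 against 3 libraries an exact permutation test cannot give a p below 0.1, so these shares carry no test.

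**Figure D5:**
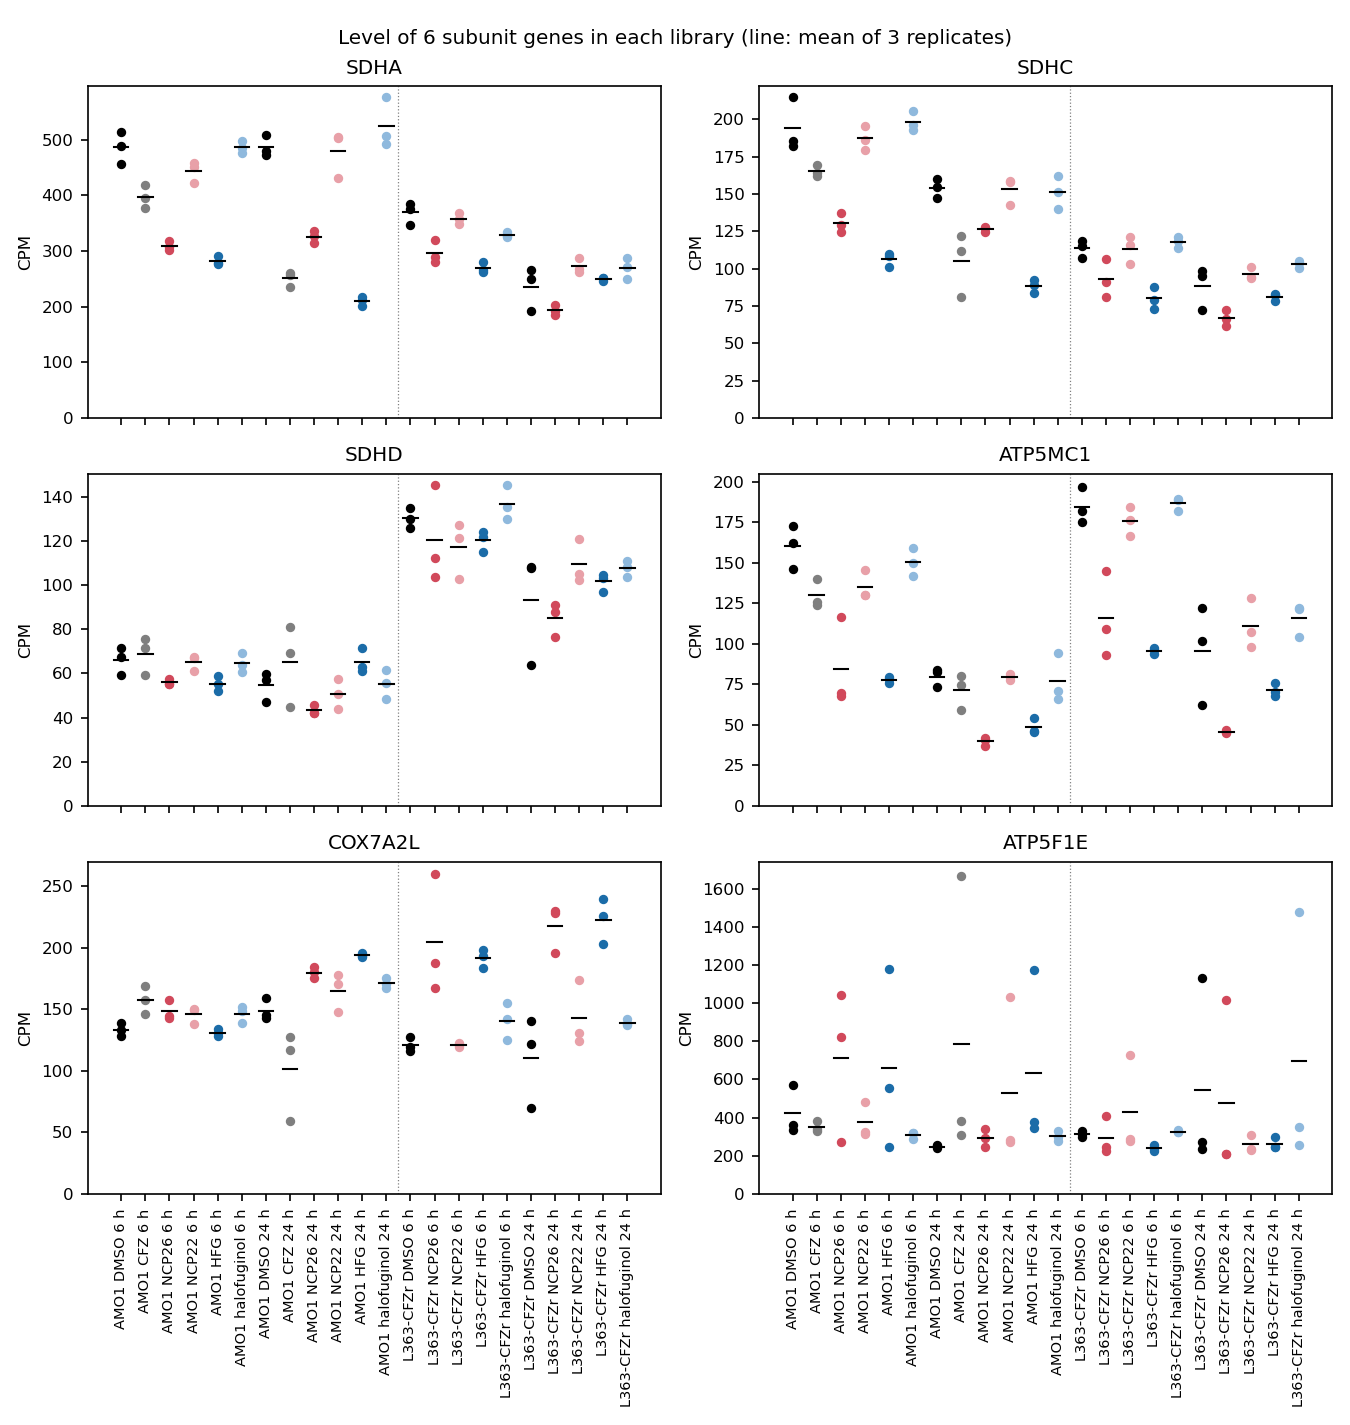
CPM (y axis, from 0) of SDHA, SDHC, SDHD, ATP5MC1, COX7A2L and ATP5F1E in every library of the 22 groups (x axis; AMO1 left and L363-CFZr right of the dotted line). Points are libraries (black DMSO, grey CFZ, red NCP26, pink NCP22, dark blue HFG, light blue halofuginol) and lines are means of 3; SDHA falls to 202 to 217 CPM in AMO1 HFG at 24 h, and ATP5F1E exceeds 500 CPM in 12 libraries.

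The lines differed under DMSO alone. At 6 h 48 subunit genes were higher and 11 lower in L363-CFZr than in AMO1 of 80 tested (28.9% of all genes higher and 31.3% lower), with a median of 0.30. Complex II went against the others, with 3 of 4 genes lower and a median of −0.32, where complexes I, III, IV and V had medians of 0.33, 0.42, 0.43 and 0.14. SDHC was at 115, 107 and 118 CPM in L363-CFZr and 182, 185 and 215 CPM in AMO1 (−0.79 ± 0.0848), and SDHA at 375, 347 and 385 CPM and 488, 514 and 456 CPM (−0.42). SDHD was higher in L363-CFZr, at 135, 129.9 and 126 CPM against 59.2, 71.4 and 67.3 CPM (0.96 ± 0.0945), as was ATP5ME, a membrane subunit of ATP synthase, at 181, 172 and 212 CPM against 88.6, 96.9 and 90.4 CPM (1.02). The lines were of different sets, and with the set as a term 15 were higher and 3 lower (24.1% of all genes called in either direction). At 24 h 1 was higher and 6 were lower of 81 (39.9% of all genes called), and 50 were higher and 15 lower without L363-CFZr DMSO replicate 2 (65% of all genes called). Without any 1 AMO1 control 3 were called, with the GC and length offset 21 were higher and 11 lower, and with the set as a term none was called. SDHA (−1.04 ± 0.14) and SDHC (−0.80 ± 0.14) were lower and SDHD higher (0.78 ± 0.21) in L363-CFZr at 24 h too.

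ATP5F1E (chromosome 20, 59025475 to 59032345), the epsilon subunit of ATP synthase, varied within groups more than the other subunit genes. It ranged from 207 to 1670 CPM with a median of 313 CPM, and 12 libraries in 10 of the 22 groups were above 500 CPM. The highest ratio between replicates of a group was 5.73, against at most 3.59 in the other subunit genes of at least 5 CPM. In AMO1 CFZ at 24 h it was 307, 1668 and 381 CPM, and in L363-CFZr DMSO at 24 h 235, 1134 and 273 CPM, where the high library was in each case the replicate 2 that stood apart. Yet in AMO1 NCP26 at 6 h, 1045, 274 and 824 CPM, and AMO1 HFG at 6 h, 243, 1177 and 554 CPM, high values also fell in replicates that did not stand apart, and L363-CFZr halofuginol replicate 3 at 24 h was high (351, 258 and 1477 CPM). With HFG at 24 h in AMO1 the fitted change was 1.33 ± 0.29 (adjusted p = 0.0007), but the 3 libraries were at 1173, 346 and 377 CPM. With NCP26 at 24 h it was 0.23 in AMO1, and with the set as a term both changes were below 0. In AMO1 that term rests on the CFZ libraries at 24 h, among them replicate 2 at 1668 CPM. The values with the term thus depend on that library too.

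The genes most like ATP5F1E were sought by the correlation of within-group deviations in log2 CPM over the 66 libraries, as a description. None of the 79 other subunit genes followed it, with a median r of −0.39 and a highest r of 0.16. Of 10163 genes 40 had r above 0.9, and RAD9B, UBXN10, NARS2, RPTN, TP53INP2, SH2D4B, CMTM4 and KANSL2 were first, each at r = 0.97 with rho from 0.88 to 0.95. Leaving out the 2 libraries farthest from the median, L363-CFZr NCP26 replicate 1 at 24 h and AMO1 CFZ replicate 2 at 24 h, gave r of 0.96 to 0.97. NARS2, a mitochondrial asparaginyl-tRNA synthetase, was at 169, 2090 and 220 CPM in AMO1 CFZ at 24 h and 77.5, 1720 and 97.4 CPM in L363-CFZr DMSO at 24 h, the same replicate 2 being high in each. Library depth and composition are shared by these points. The part of the technical variation of ATP5F1E in its calls was not tested, and medians of the subunit genes without it stayed within the spread of replicates in all 18 comparisons with DMSO.

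The subunits encoded by mitochondrial DNA had a median change nearer 0 than the nuclear ones with HFG at 6 h. In AMO1 10 of 13 were lower (26.6% of all genes lower) with a median of −0.25, led by MT-ND1 (−0.50) and MT-CYB (−0.45). In L363-CFZr 13 of 13 were lower (27.5% of all genes lower) with a median of −0.25. At 24 h in AMO1 they were lower in 13 of 13 with NCP26 (median −0.44, 30.9% of all genes lower). With HFG they were higher in 9 of 13 (median 0.24, 28.5% of all genes higher), led by MT-ND2 (0.54) and MT-CO2 (0.52), and lower in 1. With CFZ at 24 h 5 of 13 were higher with a median of 0.47 (27% of all genes called in either direction). Without CFZ replicate 2, 10 were higher and 1 lower with a median of 0.38 (48.2% of all genes called in either direction). Between the lines at 6 h 12 of 13 were higher in L363-CFZr (28.9% of all genes higher) with a median of 0.57. CYC1, the cytochrome c1 subunit of complex III that the symbol rule did not take, changed by −0.53 in AMO1 HFG at 6 h, −0.34 in L363-CFZr and −0.64 in AMO1 NCP26 at 24 h. CYCS, cytochrome c itself, fell with NCP26 at 24 h in AMO1 (−0.35).

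The citric acid cycle and pyruvate dehydrogenase genes, which feed the chain, were lower in 13 of 18 and higher in none with HFG at 6 h in AMO1 (median −0.35), with DLAT (−1.06), PDHB (−0.93) and MDH2 (−0.69) among them. In L363-CFZr 7 of 18 were lower and 1 higher (median −0.13). At 24 h in AMO1 12 of 18 were lower with HFG, led by DLAT (−1.90) and CS (−1.22), citrate synthase, and 13 of 18 with NCP26, led by DLAT (−1.14), CS (−1.11) and IDH2 (−1.11). Assembly factors of the complexes did not move as 1 group, with 5 higher and 13 lower of 50 for HFG at 6 h in AMO1 (PET100 −0.76) and 12 higher and 11 lower of 51 for NCP26 at 24 h. Mitochondrial ribosomal protein genes were lower in 37 and higher in 3 of 75 with HFG at 6 h in AMO1 (median −0.27). Of 14 tested regulators of mitochondrial genes, 5 were higher and 4 lower with HFG at 6 h in L363-CFZr, whose HFG libraries were of another set than the controls, and 1 was higher and 3 lower in AMO1. At 24 h in AMO1 1 was higher and 5 lower with NCP26, and 5 were lower with HFG. GABPA (0.95) and TFAM (0.61), a packaging and transcription factor of mitochondrial DNA, were higher and PPRC1 (−0.65) and POLG (−0.66), the mitochondrial DNA polymerase, lower with HFG at 6 h in L363-CFZr. PPARGC1A, a coactivator of mitochondrial biogenesis, was lower with NCP26 at 24 h in AMO1 (−1.30), and PDSS1, which makes the tail of coenzyme Q, was lower as well (−1.83). Targets of ATF4, the factor of the amino acid response, rose in 12 of 14 with HFG at 6 h in AMO1 (1 fell, median 1.01) and 13 of 14 in L363-CFZr (median 2.14). Over all tested genes, 26.6% were lower and 2972 of 10737 higher with HFG at 6 h in AMO1. In L363-CFZr 27.5% were lower and 2822 of 10478 higher. At 24 h in AMO1, 30.9% were lower and 29.8% higher with NCP26, and 30.5% and 28.5% with HFG. The counts of assembly factors and regulators are not set apart from these shares.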

How the data were processed

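Poly(A) RNA of 66 libraries was sequenced with a directional kit. The authors deposited 1 table of raw counts of 20167 genes, estimated with kallisto; the submitters' processing notes name hg19 and the study's methods GRCh38, so gene positions come from GENCODE release 44 (GRCh38) by gene identifier, matched for 19299 rows. All 66 columns matched a sample title, and groups came from the labels.

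Genes were filtered per comparison with filterByExpr (minimum count 10, minimum total 15), scaled by TMM, and tested with the quasi-likelihood F test of edgeR 4.0.16 in R 4.3.3, using only the groups compared, with the Benjamini-Hochberg adjustment over all tested genes and a threshold of 0.05. Each SE was taken from the fold change and its F value. CPM values are counts scaled by the TMM library size (by the plain total in the search for genes like ATP5F1E). Alternatives were DESeq2 1.42.0 size factors and its Wald test, no filter, each library left out, the replicate number as a block, a lowess offset for GC content and transcript length (span 0.3) and, added after the data were seen, the set of sample numbers as a term, where the groups that span 2 sets link them. In AMO1 the only link was CFZ at 24 h, with replicate 1 in set 1 and replicates 2 and 3 in set 2. Its replicate 2 stood apart. In L363-CFZr the only link was NCP22 at 6 h, with replicate 3 alone in set 3. Fits with the set as a term therefore depend on few libraries. The code was tested on simulated data. The subunit genes and lists were chosen with earlier results of these data known. Named genes were fixed subunits of each complex plus, for NCP26, HFG and CFZ, up to 5 called genes each way of at least 5 CPM without overlap between groups, and up to 3 elsewhere; genes most like ATP5F1E were chosen after their values were seen. The values of 1 subunit gene are not reported here, though it is included in the counts and medians.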

Additional observations from a re-analysis of the deposited data

Results flagged for a closer look

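Several subunit genes were singled out because the effect of a compound differed between lines or times in a test of the difference itself. The HFG effect at 24 h differed between the lines in 10 genes (16.9% of all genes called). L363-CFZr minus AMO1 was 1.28 for SDHA, 0.90 for ATP5F1B, 0.67 for UQCRFS1, 0.66 for SDHC, 0.62 for NDUFV1 and 0.62 for ATP5MC2 (log2). The shared control of L363-CFZr at 24 h held the replicate 2 that stood apart, and without it the values were 1.17 for SDHA, 0.74 for ATP5F1B, 0.52 for UQCRFS1, 0.54 for SDHC, 0.47 for NDUFV1 and 0.48 for ATP5MC2. At 6 h the HFG effect differed in 15 genes (20.7% of all genes called), at 0.69 for COX7A2L, 0.41 for UQCRH, 0.40 for NDUFA8, 0.35 for SDHC, 0.33 for SDHA, 0.33 for NDUFS1, 0.29 for ATP5MC3, 0.25 for ATP5F1A and 0.23 for ATP5F1B. The HFG libraries of L363-CFZr at 6 h were of another set than their controls, and with the set as a term these calls were lost.

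The HFG effect in AMO1 changed from 6 to 24 h in 57 genes (18.5% of all genes called upward and 21% downward). The change (24 h minus 6 h) was 1.14 for NDUFA13, 0.91 for NDUFB10, 0.89 for NDUFC1, 0.64 for ATP5IF1, 0.62 for NDUFA4, 0.52 for SDHD, 0.45 for COX7A2, 0.41 for COX7A2L, 0.32 for ATP5MC1 and 0.31 for COX4I1, and it was −0.43 for SDHA and −0.22 for ATP5F1B. The NCP26 effect in AMO1 changed with time in 9 genes (17.5% of all genes called), at 0.72 for NDUFS6, 0.69 for NDUFA13 and 0.45 for ATP5IF1, and at −0.70 for COX6A1, −0.40 for UQCRFS1 and −0.38 for NDUFV1. Without NCP26 replicate 1 at 6 h, which stood apart, the values were 0.80, 0.94 and 0.56 for the first 3 of these, and −0.36 for COX6A1, −0.34 for NDUFV1 and −0.31 for UQCRFS1, which was then not called (adjusted p = 0.061, edgeR). The 24 h libraries of both compounds were of another set than their controls, and the part of the set was not tested beyond the fit with the set as a term.

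In 7 cases every library of one group moved one way and every library of the other the opposite way, and the difference was not tested. The cases were picked by this pattern, and its share over all genes is not given, so their number is a description only. With halofuginol at 6 h ATP5MC3 was at −0.08 in AMO1 and 0.08 in L363-CFZr, whose halofuginol libraries were of another set than their controls. In AMO1 with CFZ, COX7A2L was at 0.24 at 6 h and −0.54 at 24 h, and with halofuginol ATP5F1E was at −0.44 at 6 h and 0.28 at 24 h. ATP5F1E varied widely between replicates, and its call at 6 h was lost without DMSO replicate 1. In L363-CFZr with HFG, ATP5MC2 was at −0.49 at 6 h and 0.40 at 24 h, and ATP5IF1 at −0.09 and 0.43. In L363-CFZr with halofuginol, UQCRC1 was at −0.12 at 6 h and 0.33 at 24 h, and ATP5MC2 at −0.20 and 0.34. Several of these 24 h values moved without the library that stood apart in their comparison. Without CFZ replicate 2 COX7A2L was at −0.27. Without L363-CFZr DMSO replicate 2 ATP5MC2 was at 0.26 and ATP5IF1 at 0.12 with HFG, and UQCRC1 was at 0.10 and ATP5MC2 at 0.21 with halofuginol.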

How the results depend on the processing

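Counts of called subunit genes are given here where they moved by more than 1.5 times. In several fits the share of all genes called moved as well, so these shifts are not read as particular to the subunit genes. AMO1 NCP26 at 24 h had 30.9% of all genes lower and 29.8% higher by the main fit. With the set as a term 13.9% were called in either direction. Without the filter on low counts there were 38 for AMO1 NCP26 at 6 h, 1 each for AMO1 NCP22 and halofuginol at 24 h, 10 for L363-CFZr NCP26 and 2 for NCP22 at 6 h, 2 for L363-CFZr NCP26 at 24 h, 24 (AMO1) and 10 (L363-CFZr) for NCP26 against NCP22 at 6 h, 2 for the NCP26 difference between lines at 6 h and 17 for the NCP26 change with time. With the offset for GC content and length there were 43 for AMO1 NCP26 and 4 for halofuginol at 6 h, 24 for CFZ and 1 for halofuginol at 24 h, 32 for L363-CFZr NCP26 and 5 for halofuginol at 6 h, 21 for NCP26 and 6 for HFG at 24 h, 27 (AMO1) and 28 (L363-CFZr) for NCP26 against NCP22 at 6 h, 28 for L363-CFZr NCP26 against HFG at 24 h, 32 for the lines at 24 h, 4 and 14 for the NCP26 difference between lines at 6 and 24 h, 28 for the HFG difference at 24 h, and 21 (NCP26) and 37 (HFG) for the changes with time. The Wald test of DESeq2 gave 7 for CFZ at 6 h, 0 and 1 for AMO1 halofuginol at 6 and 24 h, 3 for L363-CFZr NCP26 and 1 for HFG at 24 h, and 1 and 2 for the NCP26 difference between lines. With the set as a term there were 7 for AMO1 NCP26, 3 for HFG and 1 for CFZ at 24 h, 2 for L363-CFZr HFG and 0 for halofuginol at 6 h, 0 for L363-CFZr NCP26 against NCP22 at 6 h, 18 and 0 for the lines at 6 and 24 h, 1 and 0 for the HFG difference at 24 and 6 h, and 0 (NCP26) and 21 (HFG) for the changes with time. The cause was not tested.

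Replicate numbers did not pair the samples, since in no comparison did every same-numbered pair deviate together (correlation above 0.1); with the replicate block there were 7 for CFZ at 6 h, 19 and 1 for AMO1 NCP22 at 6 and 24 h, and 0 for L363-CFZr NCP26 at 24 h. With 1 library left out, counts ran from 15 to 66 for AMO1 NCP26, 6 to 13 for CFZ, 2 to 24 for NCP22 and 0 to 12 for halofuginol at 6 h, 2 to 43 for CFZ at 24 h, 2 to 70 for L363-CFZr NCP26 and 4 to 16 for halofuginol at 6 h, 0 to 58 for NCP26 and 0 to 22 for HFG at 24 h, 7 to 50 (AMO1) and 1 to 55 (L363-CFZr) for NCP26 against NCP22 at 6 h, 33 to 60 for L363-CFZr NCP26 against HFG, 3 to 65 for the lines at 24 h, 0 to 1 and 0 to 34 for the NCP26 difference at 6 and 24 h, 6 to 40 and 8 to 15 for the HFG difference at 24 and 6 h, and 5 to 30 for the NCP26 change with time. The share of all genes called moved too. It went from 18.8% to 36.7% for L363-CFZr NCP26 at 6 h without NCP26 replicate 2. For NCP26 at 24 h in that line it went from 7.09% to 28.6% without DMSO replicate 2. For AMO1 CFZ at 24 h it went from 27% to 48.2% without CFZ replicate 2. Leaving out a library changed the sign of no call of a named gene, and 254 of 2237 such repeats lost the call. Medians over the subunit genes did change sign: from −0.13 to 0.10 for CFZ at 24 h without CFZ replicate 2, from −0.13 to 0.04 for L363-CFZr NCP26 at 24 h without DMSO replicate 1 or 3, from 0.21 to −0.06 for HFG without DMSO replicate 2, from −0.09 to 0.05 for L363-CFZr NCP26 against NCP22 at 6 h without NCP26 replicate 3, from 0.02 to −0.16 or −0.15 for the lines at 24 h without L363-CFZr DMSO replicate 1 or 3, from 0.11 to −0.10 and 0.17 to −0.12 for the NCP26 difference at 6 and 24 h without L363-CFZr NCP26 or DMSO replicate 2, and from −0.02 to 0.18 for the NCP26 change with time without NCP26 replicate 1 at 6 h. Other medians that changed sign lay within 0.1 of 0 in both fits.

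Fold changes that reversed under the GC and length offset were those of ATP5IF1 (0.23) and ATP5MC2 (0.0875) with HFG and UQCRC1 (0.0018) with NCP22 in AMO1 at 6 h, NDUFS1 (−0.19) and NDUFA5 (−0.37) with HFG and NDUFA5 (−0.0829) with halofuginol in L363-CFZr at 6 h, ATP5IF1 (0.0854) and ATP5MC2 (0.0595) in AMO1 and ATP5MC2 (0.0408) and NDUFV1 (0.0364) in L363-CFZr for HFG against halofuginol at 6 h, ATP5MC2 (0.0467) for L363-CFZr NCP26 against HFG at 24 h, and COX7A2 (−0.0122), COX4I1 (−0.11) and ATP5MC1 (−0.16) for the HFG change with time. With the set as a term ATP5F1E reversed with NCP26 (−1.54) and HFG (−0.42) in AMO1 at 24 h, as did COX7A2 (0.085), COX4I1 (0.0889) and ATP5MC2 (0.0347) with HFG, and SDHB (0.13) between the lines at 6 h. Of 339 calls of named genes, 339 stayed called with DESeq2 size factors, 30 were lost by the Wald test, 11 with the replicate block and 33 with the GC and length offset, which reversed 14 more. Of the 140 on which the set could be a term, 109 were lost and 6 reversed. In AMO1 that term rested on CFZ at 24 h, whose replicate 2 stood apart. Totals of 1666325 to 6596543 counts limit the low genes NDUFA4L2 and NDUFC2-KCTD14 most.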
